A study of Mus musculus with 6 samples.

Results

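Before cartilage forms, loose limb mesenchyme gathers into dense condensations, and cells in a condensation are held together by adhesion molecules of the cell surface and by proteins of the surrounding matrix. Of these molecules, 8 genes were followed in DID cultures: the cell-cell adhesion receptors *Ncam1*, *Cdh2*, *Cdh11*, *Vcam1* and *Icam1*, the matrix glycoproteins *Fn1* and *Tnc*, and the hyaluronan receptor *Cd44*. They are defined by gene symbol alone, and each symbol matched a single row among the 32286 genes of every library. DID (digits in a dish) cultures are high-density cultures of dissociated mesenchyme from the distal forelimb buds of E11.5 CD-1 mouse embryos. All 6 libraries came from wild-type cells pooled over embryos, with 2 independent cultures, A and B, taken on each of Day 2, Day 7 and Day 10 after seeding, so the groups are labelled as differing in culture time alone. Cultures were grown in medium with fetal bovine serum and no added growth factor, and single cells were sequenced from the 3′ end with unique molecular identifiers (UMIs), which count RNA molecules.

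NCAM1, a member of the immunoglobulin family, and N-cadherin, the product of *Cdh2*, are the classical adhesion molecules of prechondrogenic condensations, and both bind the same molecule on a neighbouring cell. Cadherin-11, from *Cdh11*, is a mesenchymal cadherin that is also known from the synovial lining and from bone-forming cells. Fibronectin and tenascin-C are matrix proteins bound by integrins, and CD44 binds the hyaluronan that fills the space between mesenchymal cells. VCAM1 and ICAM1 are best known as inducible receptors for leukocyte integrins, and both are also made by mesenchymal and stromal cells.

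In the order replicate A, replicate B, which is kept throughout, the cells kept numbered 9448 and 16486 for Day 2, 13485 and 12346 for Day 7, and 10385 and 9949 for Day 10, and their sums held 178022112 to 260245417 UMIs per library. Day 2 replicate B was the shallowest library, with a median of 3871 UMIs per cell against 8062 to 24197 in the other 5. Of its cells, 41.4% had fewer than 3000 UMIs. Leaving it out, or leaving out Day 2 replicate A, changed none of the 24 calls given for the adhesion genes (8 genes in 3 comparisons). Both Day 7 libraries were shallow too: their medians were 8062 and 9337 UMIs, with 30.8% and 23.5% of cells under 3000. Those of Day 10 were deeper, with medians of 24197 and 22128 UMIs and shares of 7.92% and 10.9%. Depth thus differed by day between Day 7 and Day 10, which leaving out a Day 2 library does not address. The part of depth in that comparison was not tested. Any pair of libraries shared 24 to 67 cell barcodes, at most 0.543% of the smaller one. Of the chondrocyte markers, 8 of 8 rose from Day 2 to Day 7, as did 35.7% of all genes tested. Their summed level was 1464 and 1579 CPM (UMI counts scaled to a common library total, with TMM factors) at Day 2 and 16499 and 15450 CPM at Day 7. In sums over whole cultures, fewer cells of a type and less RNA per cell cannot be told apart.

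The 8 genes lie on GRCm38 chromosomes 9 (*Ncam1*, 49502136 to 49798925, minus strand; *Icam1*, 21015985 to 21028817, plus strand), 18 (*Cdh2*, 16588877 to 16809246, minus), 8 (*Cdh11*, 102632095 to 102785642, minus), 1 (*Fn1*, 71585520 to 71653200, minus), 4 (*Tnc*, 63959785 to 64047015, minus), 2 (*Cd44*, 102811141 to 102901665, minus) and 3 (*Vcam1*, 116109949 to 116129688, minus). Several are heavily spliced: the annotation lists 17 transcripts of *Fn1*, 9 of *Cd44* and 7 of *Ncam1*. Counting from the 3′ end sums these forms, so splice variants were not resolved.

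Promoter sequence from RefSeq (GRCm38.p6) matched 3 of the 8 genes by symbol, *Icam1*, *Tnc* and *Cd44*, all of which were higher at Day 7 and at Day 10 than at Day 2. The 250 bases before the start site are shown, since these are the members whose start could be set beside their course in culture, 5′ to 3′ on the strand of the gene, at chr9:21015690-21015939 for *Icam1*, chr4:64047016-64047265 for the first of 2 *Tnc* starts and chr2:102901666-102901915 for *Cd44*. Capitals mark a match to one of the 6 motifs searched.
Icam1: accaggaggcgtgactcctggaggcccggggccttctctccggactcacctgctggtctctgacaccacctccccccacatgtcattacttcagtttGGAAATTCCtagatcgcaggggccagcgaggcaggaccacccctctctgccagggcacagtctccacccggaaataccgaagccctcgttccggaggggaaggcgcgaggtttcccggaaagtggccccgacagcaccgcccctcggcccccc
Tnc: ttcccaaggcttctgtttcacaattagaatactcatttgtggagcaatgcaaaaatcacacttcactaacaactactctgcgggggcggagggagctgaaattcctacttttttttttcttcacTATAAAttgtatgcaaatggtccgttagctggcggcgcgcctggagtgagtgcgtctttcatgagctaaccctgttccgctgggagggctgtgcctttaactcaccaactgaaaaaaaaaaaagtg
Cd44: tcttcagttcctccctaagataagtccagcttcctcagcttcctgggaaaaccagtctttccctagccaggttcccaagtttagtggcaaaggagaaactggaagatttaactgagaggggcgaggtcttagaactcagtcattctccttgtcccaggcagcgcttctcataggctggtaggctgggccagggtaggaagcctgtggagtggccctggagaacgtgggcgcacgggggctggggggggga
The motifs, searched on both strands, were an NF-kB site (GGAAATTCC), an AP-1 site (TGANTCA), the TATA box (TATAAA) and a variant of it (TATATAA), a cyclic AMP response element (TGACGTCA) and an SRF CArG box. The *Icam1* window held the NF-kB letters, beginning 153 bases before the start, which were present in 0.286% of 32851 promoter windows of the same length. The *Tnc* window shown held TATAAA, beginning 126 bases before the start, which was present in 12.4% of the windows. The window of the other *Tnc* start, at chr4:64046937-64047186, overlaps with the window shown and held the same TATAAA site, beginning 205 bases before that start. It also held TATATAA, beginning 29 bases before that start, which was present in 3.04% of the windows. None of the 6 motifs was in the *Cd44* window. Only these fixed letters, chosen by hand, were searched, so the shares are of the letters and not of all such sites. A share therefore does not measure how unlikely a match was. No link between a motif and the course of its gene was tested. Other forms of a site could be present in any window.

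First, the levels of the adhesion genes were compared between Day 2 and Day 7, the period between early condensation and differentiated cartilage. Of the 8 genes, 5 rose (*Icam1*, *Fn1*, *Tnc*, *Cd44* and *Ncam1*), 2 fell (*Cdh2* and *Vcam1*), and *Cdh11* did not pass the test (edgeR quasi-likelihood test on library sums, adjusted p under 0.05 over 18987 genes). Changes were common at this interval: 70.3% of all genes tested were called, 35.7% higher and 34.6% lower at Day 7. The share of members called was thus not far from that over all genes, and the size and direction of each change are what is described here.

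**Figure D1:**
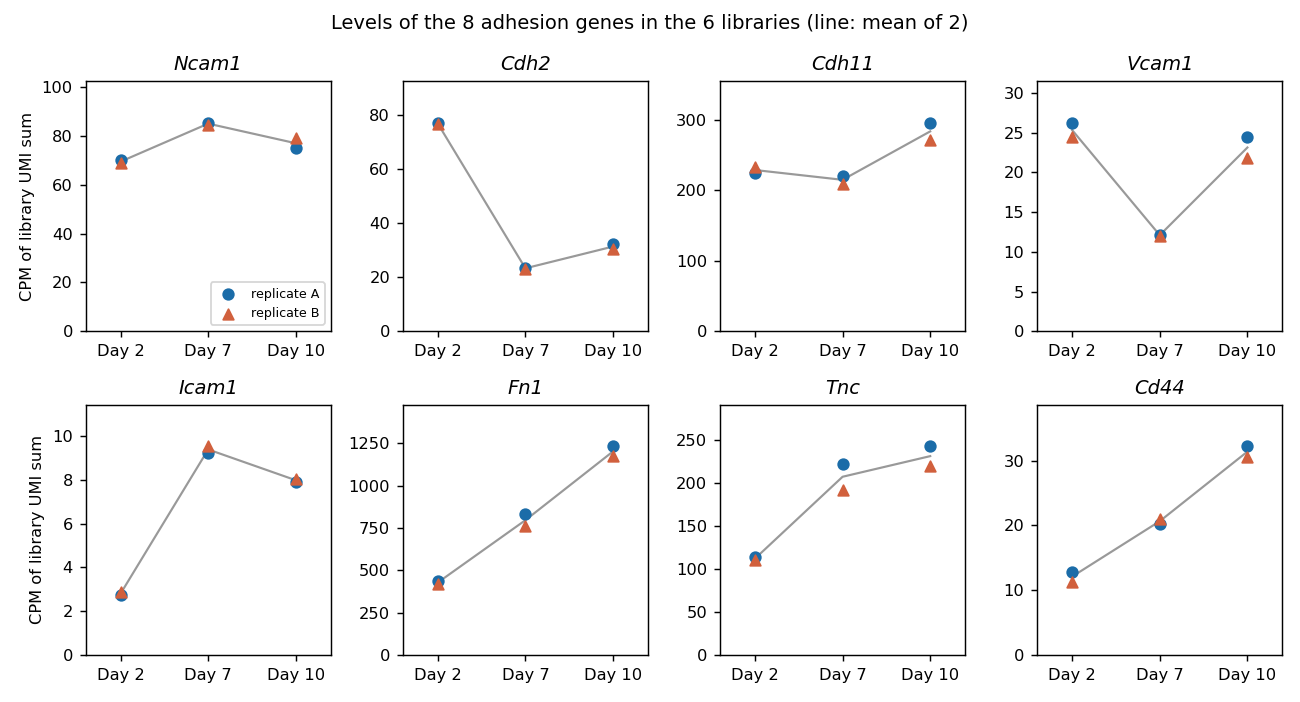
Levels of the 8 adhesion genes in the 6 libraries, as CPM of the UMI sum over the cells kept (vertical axes, each starting at 0) by day of culture, with circles for replicate A, triangles for replicate B and a line through the mean of the 2. *Fn1* and *Cd44* climb at each step, *Cdh2* falls from 77.0 to 23.3 CPM after Day 2, and *Vcam1* dips at Day 7.

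Of the 2 classical condensation molecules, *Cdh2* fell and *Ncam1* did not. *Cdh2* stood at 77.2 and 76.7 CPM at Day 2, at 23.4 and 23.2 CPM at Day 7, and at 32.4 and 30.3 CPM at Day 10. No library of one day overlapped with another day, and Day 2 was the highest. Its log2 fold change from Day 2 to Day 7 was -1.72 ± 0.0519 (SE, adjusted p = 2.07e-08), the deepest fall of the 8. Markers of early limb tissues fell over the same interval: 4 of 4 of the joint interzone (summed 584 and 522 CPM at Day 2, 162 and 171 CPM at Day 7), 4 of 4 of interdigital mesenchyme and 4 of 4 of dividing cells. Their part in the fall of *Cdh2* was not tested.

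*Ncam1* had 70.1 and 69.0 CPM at Day 2, 85.5 and 84.7 CPM at Day 7, and 75.0 and 79.1 CPM at Day 10. The highest values were those of Day 7, and no 2 days overlapped, but the whole span was small. The rise to Day 7 was 0.29 ± 0.0488 on the log2 scale (adjusted p = 6.38e-04). Muscle markers moved with this interval: 5 of 6 fell, from a summed 394 and 304 CPM at Day 2 to 88.3 and 27.6 CPM at Day 7 and 6.06 and 16.2 CPM at Day 10. NCAM1 is also a muscle protein, and without the myocyte-like clusters described below the rise of *Ncam1* was larger, at 0.38 ± 0.0497. The part of muscle cells in the course of *Ncam1* was not tested.

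*Cdh11* was almost level between the first 2 time points, with 225 and 232 CPM at Day 2 and 220 and 209 CPM at Day 7. Its log2 fold change was -0.09 ± 0.0622 (95% interval -0.23 to 0.052, adjusted p = 0.221). When every cell was thinned to 1000 UMIs, the sign turned and the value became 0.23 ± 0.0969 (adjusted p = 0.0488). No direction for *Cdh11* between Day 2 and Day 7 therefore holds with and without thinning.

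Both matrix genes rose. *Fn1* had 438 and 416 CPM at Day 2, 832 and 758 CPM at Day 7, and 1231 and 1172 CPM at Day 10. Each day lay above the one before it in both replicates. *Tnc* went from 114 and 111 CPM at Day 2 to 223 and 192 CPM at Day 7 and 243 and 220 CPM at Day 10, where replicate B of Day 10 overlapped with Day 7. From Day 2 to Day 7 the log2 fold changes were 0.90 ± 0.0714 for *Fn1* (adjusted p = 5.69e-06) and 0.89 ± 0.0797 for *Tnc* (adjusted p = 1.20e-05). Most perichondrium markers moved in the same direction: from Day 2, 3 of 4 rose and none fell by Day 7, and 3 rose and 1 fell by Day 10, with summed levels of 945 and 987 CPM at Day 2, 2571 and 2385 CPM at Day 7, and 4385 and 3824 CPM at Day 10. Of 5 contractile markers, 2 rose and 1 fell from Day 2 to Day 7, and 5 rose from Day 2 to Day 10, where their sum was 6507 and 6841 CPM against 3945 and 3162 CPM at Day 2. None of these markers was at 0 in any library, and their part in the rise of *Fn1* and *Tnc* was not tested.

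*Cd44*, the hyaluronan receptor, stood at 12.9 and 11.3 CPM at Day 2, 20.2 and 21.1 CPM at Day 7, and 32.2 and 30.6 CPM at Day 10. Like *Fn1*, it was higher at each later day in both replicates. Its log2 fold change to Day 7 was 0.77 ± 0.0688 (adjusted p = 1.17e-05). Immune markers, whose cells carry much *Cd44*, moved in the same direction: 3 of 6 rose to Day 7 and 6 of 6 to Day 10, with summed levels of 20.5 and 10.0 CPM at Day 2, 27.3 and 38.8 CPM at Day 7, and 103 and 129 CPM at Day 10. Without the immune-like clusters the *Cd44* values were close to those with them, at 0.76 ± 0.0694 for Day 2 to Day 7 and 1.34 ± 0.0693 for Day 2 to Day 10. The part of immune cells in the rise of *Cd44* was not tested.

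The inducible receptors *Vcam1* and *Icam1* moved in opposite directions. *Vcam1* had 26.3 and 24.4 CPM at Day 2, 12.2 and 12.02 CPM at Day 7, and 24.4 and 21.8 CPM at Day 10. Day 7 was the low point, and Day 10 overlapped with Day 2. The log2 fold change from Day 2 to Day 7 was -1.07 ± 0.0675 (adjusted p = 1.36e-06). *Icam1* had 2.73 and 2.87 CPM at Day 2, 9.25 and 9.53 CPM at Day 7, and 7.90 and 8.06 CPM at Day 10. It had the greatest rise of the 8 to Day 7, 1.75 ± 0.0650 (adjusted p = 6.77e-08).

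Next, Day 10 was compared with Day 7, the step toward tissue maturation. In this comparison 5 of the 8 genes rose (*Vcam1*, *Cd44*, *Fn1*, *Cdh2* and *Cdh11*), 2 fell (*Icam1* and *Ncam1*), and *Tnc* did not pass the test, where 52.2% of all genes tested were called, 26.3% higher and 25.9% lower at Day 10. *Vcam1* had the largest rise of the 8, a log2 fold change of 0.94 ± 0.0674 (adjusted p = 2.73e-05). *Cd44* rose by a further 0.60 ± 0.0674 (adjusted p = 1.87e-04) and *Fn1* by 0.60 ± 0.0711 (adjusted p = 2.62e-04). At this step 8 of 8 chondrocyte markers fell, to a summed 10016 and 9137 CPM, while 6 of 6 bone markers rose, and 4 of 5 tenocyte markers rose and 1 fell. Of 4 perichondrium markers 3 rose and 1 fell, of 5 contractile markers 3 rose and 0 fell, and 6 of 6 immune markers rose. The part of all these markers' cells in the rises of *Vcam1*, *Cd44*, *Fn1*, *Cdh2* and *Cdh11* was not tested.

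The 2 cadherins, level or falling before, both rose. *Cdh2* gained 0.43 ± 0.0511 (adjusted p = 2.61e-04), which left it below its Day 2 level, and *Cdh11* gained 0.40 ± 0.0623 (adjusted p = 9.94e-04), which took it above. Neither gain passed the test with each cell thinned to 1000 UMIs, where they were 0.075 ± 0.108 for *Cdh2* (adjusted p = 0.648) and 0.26 ± 0.0969 for *Cdh11* (adjusted p = 0.0635). The cause of the difference was not tested.

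Both falls were small. *Icam1* changed by -0.23 ± 0.0609 (adjusted p = 0.0119) and *Ncam1* by -0.14 ± 0.0487 (adjusted p = 0.0360). Neither call is firm: that of *Ncam1* was lost without any 1 of the 4 libraries compared (adjusted p = 0.0658 to 0.236), and that of *Icam1* without Day 7 replicate A, Day 7 replicate B or Day 10 replicate A (adjusted p = 0.0547, 0.0988 and 0.0634). With each cell thinned to 1000 UMIs both calls were lost (adjusted p = 0.131 for *Ncam1* and 0.682 for *Icam1*). *Tnc* differed by 0.16 ± 0.0790 (95% interval -0.022 to 0.34, adjusted p = 0.124), and its sign turned with thinned cells, at -0.018 ± 0.148.

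Across the whole course, from Day 2 to Day 10, 6 of the 8 genes rose, *Cdh2* fell, and *Vcam1* did not pass the test, where 77.3% of all genes tested were called, 39% higher and 38.2% lower. The comparisons share libraries, so they are not independent of each other. *Icam1* (1.51 ± 0.0647, adjusted p = 9.35e-08), *Fn1* (1.49 ± 0.0724, adjusted p = 1.89e-07), *Cd44* (1.38 ± 0.0688, adjusted p = 2.29e-07) and *Tnc* (1.05 ± 0.0799, adjusted p = 3.09e-06) rose most, to ratios over Day 2 of 2.85, 2.81, 2.59 and 2.06. *Cdh11* (0.31 ± 0.0623, adjusted p = 0.00161) and *Ncam1* (0.15 ± 0.0488, adjusted p = 0.0207) rose by far less, and the *Ncam1* call was lost without Day 10 replicate B (adjusted p = 0.117) and with cells thinned to 1000 UMIs (0.19 ± 0.0918, adjusted p = 0.0822). *Cdh2* fell by 1.29 on the log2 scale (SE 0.0510, adjusted p = 5.95e-08), to 0.408 of its Day 2 level. *Vcam1* differed by -0.13 ± 0.0657 (95% interval -0.28 to 0.019, adjusted p = 0.0970). Without the myocyte-like clusters, where *Vcam1* is low, it was called lower (-0.20 ± 0.0664, adjusted p = 0.0187), as it was without Day 10 replicate A (adjusted p = 0.0372) and with cells thinned to 1000 UMIs (adjusted p = 0.0364).

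**Figure D2:**
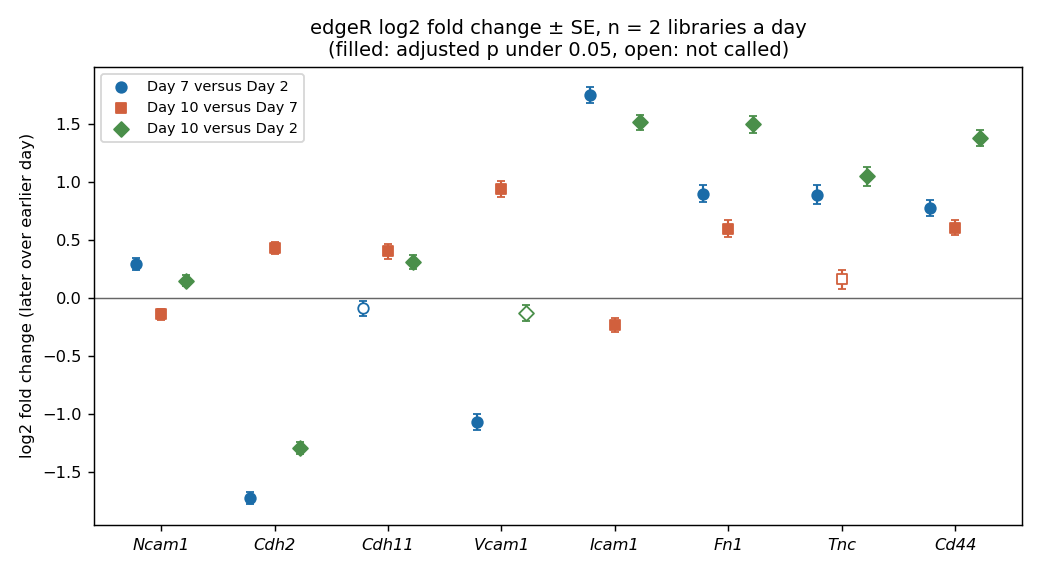
Log2 fold changes of the 8 adhesion genes, later over earlier day, with the standard error, in the 3 comparisons of 2 libraries against 2; filled symbols passed an adjusted p of 0.05. *Icam1*, *Fn1*, *Cd44* and *Tnc* lie above 1 for Day 10 over Day 2, *Cdh2* lies at -1.29, and the open symbols are *Cdh11* (Day 7 over Day 2), *Tnc* (Day 10 over Day 7) and *Vcam1* (Day 10 over Day 2).

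The partners of these molecules were read from the same fit. Beside each count below stand the shares over all genes tested. From Day 2 to Day 7, 35.7% rose and 34.6% fell. From Day 7 to Day 10, 26.3% rose and 25.9% fell, and from Day 2 to Day 10, 39% rose and 38.2% fell. Calls were thus common everywhere, the lists are short, and their counts were not tested against these shares. Of the 12 other cadherins tested, 3 rose and 5 fell from Day 2 to Day 7, and 5 rose and 5 fell from Day 7 to Day 10. P-cadherin, from *Cdh3*, followed the course of *Cdh2*: it had 22.6 and 19.2 CPM at Day 2, 8.21 and 7.98 CPM at Day 7, and 12.7 and 11.4 CPM at Day 10. Its log2 fold change was -1.37 ± 0.0880 to Day 7 (adjusted p = 1.52e-06) and 0.58 ± 0.0880 from there to Day 10. *Cdh6* rose from Day 7 to Day 10 (0.36, from a mean of 10.1 to 13.02 CPM).

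Of the 8 catenins and cadherin linkers, which tie cadherins to actin, 5 fell and *Jup* alone rose to Day 7, and 3 rose and none fell from Day 7 to Day 10. *Jup*, the gene of plakoglobin, rose at both steps (0.38 and 0.39), from a mean of 11.1 to 18.9 CPM, and *Vcl*, the gene of vinculin, rose from 118 to 153 CPM after Day 7, having been at 130.2 and 128 CPM at Day 2. *Afdn*, which links nectins to actin, fell from 50.7 to 31.0 CPM by Day 7.

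Among 21 other adhesion molecules of the immunoglobulin family, 11 fell and 4 rose from Day 2 to Day 7, with a median log2 fold change of -0.37 (0.014 over all genes tested). The 2 that fell furthest at a level of at least 10 CPM were *Cadm1*, from 32.8 and 29.9 CPM to 10.7 and 10.5 CPM, and *Nectin2*, from a mean of 33.0 to 13.2 CPM. *Cadm1* regained part of its level by Day 10 (0.89 ± 0.0790), with 18.2 and 21.1 CPM. *Cadm2* fell from 16.9 to 5.25 CPM between Day 2 and Day 10. *Nectin3* likewise fell and came back, from 40.7 and 39.8 CPM at Day 2 to a mean of 28.7 CPM at Day 7 and of 40.9 CPM at Day 10.

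Polysialic acid, a modification that weakens NCAM binding, is added by the enzymes of *St8sia2* and *St8sia4*. *St8sia2* had 19.6 and 18.0 CPM at Day 2, 4.10 and 4.17 CPM at Day 7, and 2.94 and 2.73 CPM at Day 10. Day 2 stood far above the later days in both replicates, and the log2 fold change was -2.19 ± 0.0703 to Day 7 and -2.73 ± 0.0719 to Day 10. *St8sia4*, below 1 CPM in all 6 libraries, was lower at Day 7 than at Day 2 (-0.48 ± 0.143, adjusted p = 0.0152) but did not pass the test from Day 2 to Day 10 (-0.25 ± 0.140, adjusted p = 0.135).

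In the hyaluronan system to which *Cd44* belongs, 5 of 13 genes rose and 6 fell from Day 2 to Day 7. *Hapln1*, which links hyaluronan to aggrecan in cartilage, rose from 19.7 and 26.1 CPM at Day 2 to 892 and 849 CPM at Day 7 and was at 710 and 602 CPM at Day 10. *Tnfaip6*, a hyaluronan-binding protein, fell from a mean of 22.7 to 7.89 CPM by Day 7. The hyaluronidase-related *Cemip* went from 2.39 and 2.09 CPM at Day 2 to 15.3 and 17.0 CPM at Day 10. *Has2*, a hyaluronan synthase, fell between Day 7 and Day 10 (-0.43 ± 0.0955, adjusted p = 0.00544).

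For the receptors of fibronectin, tenascin-C, VCAM1 and ICAM1, 4 of 12 integrin genes rose and 5 fell to Day 7, and over the whole course 7 rose and 5 fell. *Itga4*, whose product pairs with other chains to bind VCAM1 and fibronectin, fell from 17.7 and 15.2 CPM at Day 2 to 4.10 and 4.19 CPM at Day 7 (-1.99 ± 0.114). *Itga5*, part of the main fibronectin receptor, rose over the same interval from 22.01 and 22.5 CPM to 41.4 and 37.5 CPM (0.82 ± 0.0748). *Itga9*, part of a tenascin-C receptor, was at 15.2 and 15.8 CPM at Day 2 and at 7.32 and 6.70 CPM at Day 10 (-1.15 ± 0.0644), while *Itgav* rose after Day 7 (0.26 ± 0.0596).

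Of the 4 syndecans, proteoglycans of the cell surface that also bind fibronectin and tenascin-C, 3 rose and 1 fell to Day 7. *Sdc4* rose from 48.6 and 44.2 CPM to 205 and 203 CPM (2.14 ± 0.0612), and *Sdc3* from 19.0 and 19.2 CPM to 43.7 and 41.5 CPM (1.16 ± 0.0570). *Sdc2* rose at both steps, from 51.6 and 53.2 CPM at Day 2 to means of 96.9 and 146 CPM. *Sdc1* fell from 69.9 and 69.3 CPM at Day 2 to a mean of 42.1 CPM and rose to 62.6 CPM at Day 10. The 3 other tenascins were at most 3.58 CPM in any library.

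Of 15 genes known to act on condensation, 7 fell and 6 rose to Day 7, and 11 fell and 3 rose over the whole course (median log2 fold change -0.73, against 0.0013 over all genes tested). *Epha7*, an ephrin receptor, went from 26.4 and 27.8 CPM at Day 2 to 7.55 and 8.58 CPM at Day 7, and *Bmpr1b*, a BMP receptor, from 21.5 and 21.5 CPM to 9.94 and 9.11 CPM. The chondrogenic factors *Sox5* and *Sox6* fell after Day 7, from means of 82.6 to 35.8 CPM and of 68.5 to 34.7 CPM, together with the 8 chondrocyte markers.

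Then, the adhesion genes were followed across cells. Cells were clustered for each day with the 8 genes left out of the clustering features, which gave 13 clusters at Day 2, 16 at Day 7 and 19 at Day 10, of which 7, 9 and 10 took a name. Between 42.1% and 50.6% of cells were in unnamed clusters, and 79.0% in Day 2 replicate B. Several unnamed clusters were led by mitochondrial or nuclear RNA or by cell-cycle genes. Clusters were drawn from the same cells, so their levels are described without a test, as the mean ± SD CPM over the 2 replicates (n = 2), scaled to each cluster's own UMI total without TMM factors.

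**Figure D3:**
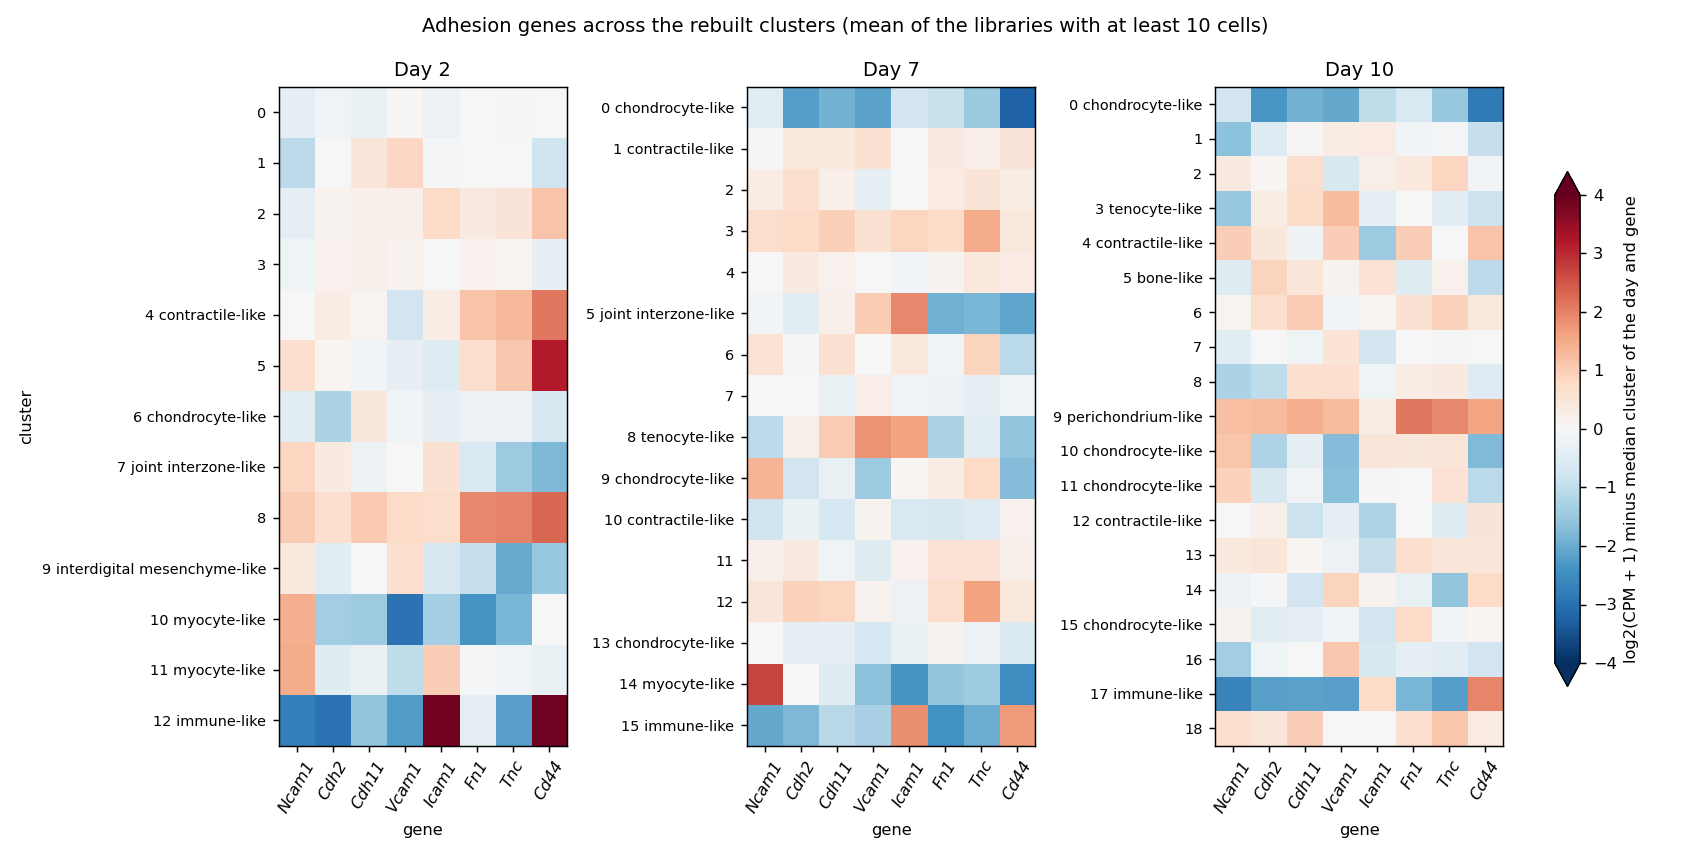
Levels of the 8 adhesion genes in each rebuilt cluster of Day 2, Day 7 and Day 10, shown in colour as log2(CPM + 1) of the cluster mean minus the median over the clusters of the same day, so that red is above and blue below the typical cluster; colours end at 4 and -4. At Day 10 cluster 9, perichondrium-like, is red for all 8 genes, the largest chondrocyte-like clusters (cluster 0 at Day 7 and Day 10) are blue for all 8, and the immune-like clusters are red for *Cd44* and *Icam1* only.

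In the chondrocyte-like clusters *Cdh2*, *Cdh11* and *Vcam1* stood lower at the later days than at Day 2, while *Ncam1* and *Icam1* did not. At Day 2 the single such cluster (cluster 6, led by *Ihh* and *Acan*) had 36.1 ± 4.2 CPM of *Cdh2*, 317 ± 21 CPM of *Cdh11* and 25.7 ± 2.5 CPM of *Vcam1*. The Day 7 class (clusters 0, 9 and 13) had 6.87 ± 0.26, 75.3 ± 4.7 and 2.02 ± 0.0074 CPM of these genes, and the Day 10 class (clusters 0, 10, 11 and 15) had 8.56 ± 0.45, 102 ± 0.17 and 4.63 ± 0.76 CPM. For these 3 genes the replicates of Day 2 lay above those of the later days. Unnamed cluster 2 of Day 10 (1896 cells) had all 8 chondrocyte markers enriched but none among its 10 leading genes, and is not in the class. *Ncam1* was at 54.8 ± 4.2 CPM at Day 2, 71.4 ± 2.9 CPM at Day 7 and 66.4 ± 2.1 CPM at Day 10 in the class, but at 49.0 CPM in its largest Day 10 cluster (cluster 0, 2410 of 4453 cells). *Icam1*, low throughout, was at 2.26 ± 0.65, 4.19 ± 0.26 and 5.24 ± 0.29 CPM.

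The matrix genes were higher in the class at each later day, *Fn1* going from 331 ± 4.1 to 550 ± 24 and 820.5 ± 34 CPM, and *Tnc* from 81.1 ± 5.6 to 109 ± 10 and 124 ± 6.1 CPM. The class holds different clusters each day, and cluster 0, its largest at Day 7 and Day 10, had 83.6 and 83.9 CPM of *Tnc*, within the spread of the Day 2 value. *Cd44* stayed low in them, between 3.34 ± 0.24 and 7.59 ± 0.89 CPM. Chondrocyte-like clusters held 11.1% and 11.3% of all UMIs in the Day 2 libraries and 41.6% and 40.1% in those of Day 7. They held 24.3% and 22.9% in those of Day 10, where unnamed cluster 2 is not counted. Unnamed cluster 3 of Day 2 (2497 cells) and unnamed cluster 6 of Day 7 (1560 cells) are not counted either. Each had 6 enriched markers of its best-matching list but none among its leading genes, so these shares depend on the naming rule. The library levels of *Cdh2* and *Vcam1* were lowest on the day when the clusters named chondrocyte-like weighed most. *Cdh2* was also lower at Day 7 than at Day 2 in other classes: 36.2 ± 1.0 against 108 ± 1.0 CPM in contractile-like and 20.1 ± 0.47 against 112 ± 4.2 CPM in joint interzone-like clusters. The joint interzone-like clusters shared *Gdf5* and *Angptl1* but were led by other genes, *Pthlh* and *Eomes* at Day 2 and *Fabp4* and *Osr1* at Day 7. *Vcam1* went from 16.0 ± 0.40 to 16.5 ± 0.69 CPM and from 27.7 ± 3.0 to 22.5 ± 0.25 CPM in the same pairs, and from 35.5 ± 3.6 to 12.7 ± 1.6 CPM over the unnamed clusters, which are a remainder and not a cell type. The part of cell composition in the courses of *Cdh2* and *Vcam1* was not tested.

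Chondrocyte-like clusters were not uniform. At Day 7 cluster 9, led by *Meltf*, *Matn1* and *Col11a2*, had 219 ± 15 CPM of *Ncam1*, 1112 ± 81 CPM of *Fn1* and 408 ± 49 CPM of *Tnc*. The much larger cluster 0 had 61.6, 478 and 83.6 CPM of these genes. Likewise at Day 10 cluster 10 had 183 ± 6.8 CPM of *Ncam1* against 49.0 CPM in cluster 0. Cluster 9 and cluster 10 were shallower, with medians of 7389 and 6839 and of 8218 and 7992 UMIs per cell, where cluster 0 had 27228 and 26577 at Day 7 and 37172 and 33691 at Day 10, and the part of depth in these differences was not tested.

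The contractile-like clusters (cluster 4 at Day 2, clusters 1 and 10 at Day 7, and clusters 4 and 12 at Day 10), with *Cnn1*, a gene of contractile cells, among their leading genes, were rich in *Fn1* and *Cd44*. Their *Fn1* went from 852 ± 17 to 1151 ± 25 and 1939 ± 101 CPM, and their *Cd44* from 28.5 ± 1.6 to 42.2 ± 2.4 and 69.2 ± 5.5 CPM. The contractile list was *Cnn1*, *Acta2*, *Tagln*, *Igfbp7* and *Spp1*. *Cnn1*, *Igfbp7* and *Spp1* are also among the markers by which the study annotated osteoblasts at each day, so the name is not settled. The sets of clusters are not alike: unnamed cluster 5 of Day 2 is not in the class and had 60.7 ± 3.5 CPM of *Cd44*. It was led by *Ankrd1* and *Cryab*, which were also among the leading genes of cluster 10 of Day 7, after *Hspb1* and *Tagln*. The larger clusters 1 of Day 7 and 4 of Day 10 had 42.4 ± 2.4 and 69.98 ± 5.8 CPM by themselves. The contractile-like clusters gave 45.1% and 39.2% of all *Cd44* UMIs in the Day 2 libraries, 49.3% and 52.5% in those of Day 7, and 41.2% and 35.3% in those of Day 10, from 15.7% to 23.8% of all UMIs. *Tnc* was at 237 ± 5.4, 275 ± 2.7 and 237 ± 0.65 CPM, where the median cluster of each day had 96.5, 238 and 239 CPM, so it stood out at Day 2 but not at Day 10. *Cdh2* was at 43.8 ± 3.0 CPM at Day 10, after the lower value of Day 7 given above. *Ncam1* was at 74.2 ± 0.63 and 81.1 ± 2.3 CPM at the first 2 days and at 166 ± 13 CPM at Day 10. *Vcam1* also stood higher at Day 10, at 32.8 ± 0.80 CPM against 16.0 ± 0.40 and 16.5 ± 0.69 CPM, whereas *Icam1* was lowest there, at 2.89 ± 0.61 CPM.

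**Figure D4:**
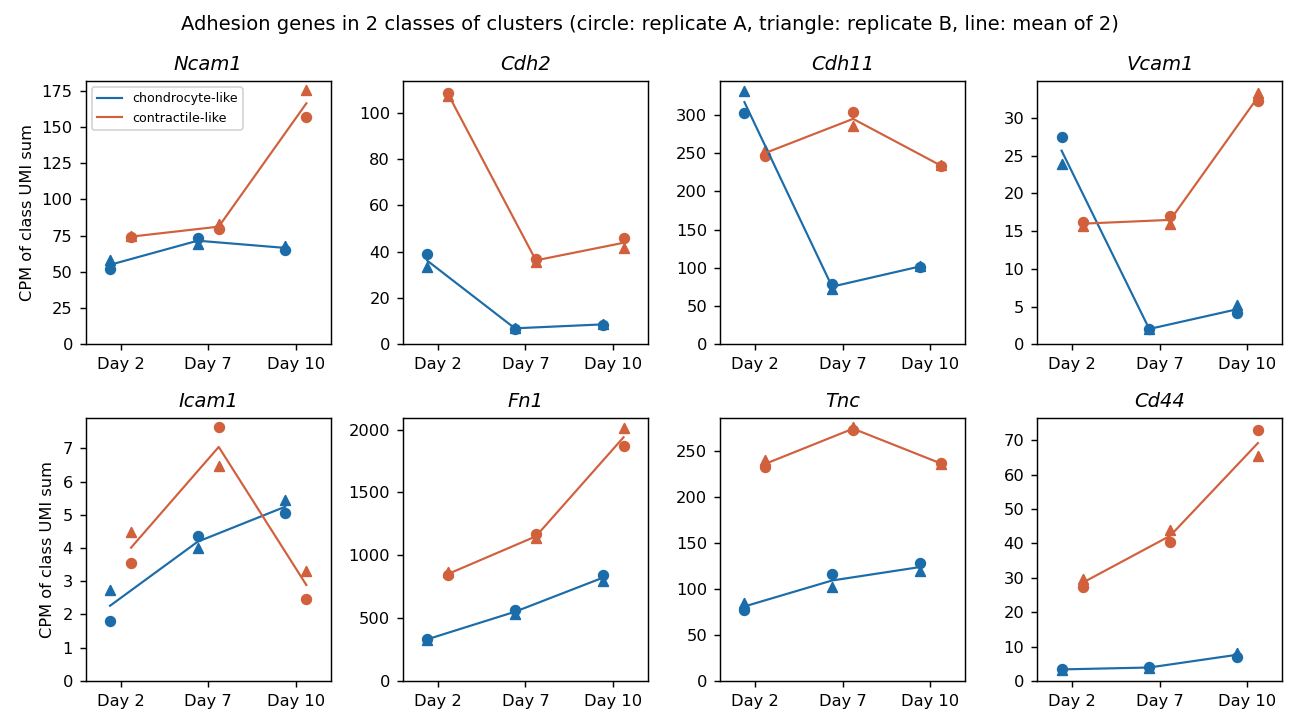
The 8 adhesion genes in the chondrocyte-like (blue) and contractile-like (orange) clusters, as CPM of the UMI sum of the class (vertical axes from 0) by day of culture, with circles for replicate A, triangles for replicate B and lines through the mean of the 2. *Cdh2* drops in both classes after Day 2, *Cdh11* and *Vcam1* drop in the chondrocyte-like class, *Fn1* climbs in both, and *Cd44* climbs mostly in the contractile-like class, which at Day 2 leaves out unnamed cluster 5 with 60.7 CPM of *Cd44*. The chondrocyte-like class leaves out unnamed cluster 2 of Day 10.

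At Day 10 the perichondrium-like cluster 9, with *Pappa* and *Postn* among its leading genes, had the highest level of 6 of the 8 genes. It had 4221 ± 195 CPM of *Fn1*, 919 ± 104 CPM of *Tnc*, 732 ± 82 CPM of *Cdh11*, 195 ± 55 CPM of *Ncam1*, 78.5 ± 4.4 CPM of *Cdh2* and 40.1 ± 3.7 CPM of *Vcam1*. *Fn1* there was more than any other cluster's, the next being the contractile-like cluster 4 with 1972 ± 107 CPM. For *Ncam1* and *Vcam1* the lead over the next cluster was within the spread of the replicates. Its *Cd44*, 95.3 ± 11 CPM, came second to the immune-like cluster. The cluster was also shallow, with median UMIs per cell of 7144 and 6476, where the libraries had 24197 and 22128, and held 5.15% and 4.47% of the cells.

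At Day 2 the unnamed cluster 8 had the highest *Fn1* (1470 ± 383 CPM), *Tnc* (387 ± 138 CPM), *Cdh11* (485 ± 68 CPM) and *Cdh2* (141 ± 27 CPM) of that day. It was led by a long noncoding RNA, *Lars2* and mitochondrial genes along with *Thbs1*, and its medians were 2828 and 3147 UMIs per cell. At Day 7 the unnamed clusters 3 and 12, led by mitochondrial genes and by cell-cycle genes, were highest in *Fn1* (1501 ± 322 and 1473 ± 278 CPM) and *Tnc* (661 ± 199 and 727 ± 220 CPM), and their order was within the spread of the replicates.

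*Ncam1* was highest in the muscle cells of the first 2 time points. The myocyte-like clusters 10 and 11 of Day 2 had 207 ± 9.6 and 209 ± 89 CPM, and the myocyte-like cluster 14 of Day 7 had 555 ± 311 CPM from 83 and 61 cells, with 335 and 775 CPM in replicates A and B and medians of 1610 and 1235 UMIs per cell. These clusters gave 12.9% and 10.96% of the *Ncam1* UMIs at Day 2 and 1.74% and 0.908% at Day 7, and no cluster was named myocyte-like at Day 10. In the same cells *Vcam1* was low, at 2.74 ± 0.16 CPM in cluster 10 of Day 2.

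*Cdh11* and *Vcam1* were both high in the clusters named tenocyte-like, where each gene had its highest cluster mean at Day 7. The *Tnmd*-led cluster 8 of Day 10 took no name and is not among them. The tenocyte-like cluster 8 of Day 7 had 452 ± 24 CPM of *Cdh11* and 38.8 ± 2.2 CPM of *Vcam1*, and the tenocyte-like cluster 3 of Day 10 had 445 ± 21 and 39.995 ± 4.5 CPM. The lead in *Cdh11* at Day 7 was within the spread of the replicates of unnamed cluster 3 (440.1 ± 74 CPM), and at Day 10 both genes were highest in the perichondrium-like cluster, as given above. In both, *Ncam1* was among the lower values, at 40.7 ± 2.1 and 28.9 ± 2.2 CPM. At Day 2 *Vcam1* was highest in unnamed cluster 1, led by *Wnt4*, *Pkdcc* and *Lum* (50.3 ± 4.3 CPM), and in the interdigital mesenchyme-like cluster 9 (45.1 ± 3.3 CPM). These lay within the spread of the replicates of each other.

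*Icam1* was low in the sums, and at Day 7 it stood out in few clusters. There the joint interzone-like cluster 5 had 29.8 ± 2.1 CPM, the immune-like cluster 15 had 28.3 ± 7.8 CPM and the tenocyte-like cluster 8 had 23.7 ± 1.8 CPM, against 3.86 CPM in the chondrocyte-like cluster 0. In the joint interzone-like cluster 26.4% and 24.4% of cells had a UMI of *Icam1*, against 9.86% and 10.3% in the whole libraries, at medians of 9691.5 and 8764.5 UMIs per cell in the cluster and 8062 and 9337 in the libraries. At Day 10 it was spread more evenly: the highest cluster, immune-like with 16.9 ± 2.4 CPM, had 1.74 times the median over clusters, against 4.23 times at Day 7. The bone-like cluster 5 of Day 10 had 14.9 ± 0.68 CPM and the tenocyte-like cluster 7.07 ± 0.16 CPM. That name rests on other genes at each day: cluster 8 of Day 7 had *Tnmd* among its leading genes and cluster 3 of Day 10 had *Scx*, while the *Tnmd*-led cluster 8 of Day 10 took no name and had 8.44 ± 0.86 CPM. At Day 2 *Icam1* was found at 59.5 CPM in the 19 immune-like cells of replicate A and at 7.18 ± 8.15 CPM or less elsewhere.

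*Cd44* led in the immune-like clusters at each day, with 101 CPM in Day 2 replicate A, 99.6 ± 17.4 CPM at Day 7 and 125 ± 10 CPM at Day 10. Those clusters held few cells, 26 on Day 2, 71 on Day 7 and 281 on Day 10, and gave 0.347% to 6.74% of the *Cd44* UMIs. At the other end, the joint interzone-like cluster of Day 2 had 0.94 ± 0.20 CPM of *Cd44*. In unnamed cluster 5 of Day 2, led by *Ankrd1*, *Cryab* and keratin genes, *Cd44* reached 60.7 ± 3.5 CPM.

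Shares of cells with a UMI were then taken with each cell thinned to 1000 UMIs, which left out 120 cells of Day 2 replicate A, 205 and 121 cells of the Day 10 libraries, and none elsewhere. *Fn1* was found in 30.5% and 32.9% of cells on Day 2, 51.0% and 42.7% on Day 7, and 57.4% and 55.6% on Day 10, and *Cdh2* in 8.17% and 7.98%, 2.64% and 2.45%, and 2.99% and 2.78%. For *Tnc* the shares were 9.12% and 10.8% on Day 2, 24.0% and 17.2% on Day 7, and 23.1% and 20.4% on Day 10. *Ncam1* lay between 6.89% and 8.16% in all 6 libraries, and *Cdh11* between 18.5% and 26.0%. Unthinned, *Fn1* was in 72.6% to 97.1% and *Cdh2* in 18.7% to 55.7% of cells.

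*Cd44* was found in 0.825% and 1.21% of thinned cells at Day 2 and in 3.07% and 2.64% at Day 10, *Vcam1* in 3.17% and 2.51%, 1.15% and 1.04%, and 2.24% and 1.92% at the 3 days, and *Icam1* in 0.279% and 0.249%, 1.01% and 1.02%, and 1.08% and 0.977%. Exact binomial 95% intervals, which cover counting error only, were 0.182% to 0.408% for *Icam1* in Day 2 replicate A and 0.889% to 1.30% in Day 10 replicate A. Free RNA in droplets adds to such shares. The immune-like cells of Day 10 numbered 118 and 163, with medians of 21231.5 and 21616 UMIs. Of them, thinned, 0.847% and 1.23% had *Cdh2*, 0.847% and 0.613% *Vcam1*, and 1.69% and 1.23% *Ncam1*. *Tnc* was in 0.847% and 3.07%, *Cdh11* in 1.69% and 4.29% and *Fn1* in 12.7% and 14.7%. All these shares were below those of their libraries, but the lowest rest on very few cells, and no interval was taken for them. For *Cd44* and *Icam1*, which immune cells carry, other clusters served: at Day 2 unthinned, the joint interzone-like cluster (medians of 11256 and 13641 UMIs) had *Cd44* in 1.54% and 1.26% of cells, against 12.8% and 7.57% in the libraries, and the myocyte-like cluster 10 (medians of 27546 and 33781.5 UMIs) had *Icam1* in 1.92% and 1.58%, against 5.64% and 2.98%.

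Within single cells, co-detection was counted after thinning to 3000 UMIs, as the number of cells with both genes over the number if the genes were independent. The ratio exceeded 1 in all 6 libraries for 12 of the 28 pairs. Among these 12, *Tnc* and *Cd44* had the widest range, 2.27 and 1.497 on Day 2, 1.40 and 1.35 on Day 7 and 1.10 and 1.09 on Day 10, from 110 to 363 cells with both. *Cdh11* and *Vcam1* had ratios between 1.02 and 1.65, with the higher values at Day 7, *Ncam1* and *Cdh2* between 1.13 and 1.27, and *Fn1* and *Tnc* between 1.06 and 1.31. Some pairs rested on few cells, from 0 to 23 with both *Cd44* and *Icam1* and from 10 to 29 with both *Cdh2* and *Icam1*, whereas *Fn1* and *Icam1* were together in 44 to 225. These ratios pool the remaining cells of a library over its clusters, so genes that share a cluster reach a ratio above 1 without any link within the cluster. Shallow clusters, such as clusters 2 and 4 of Day 7, lost most of their cells, so the cells compared differ in kind between libraries and days. Pairs of other genes were not counted, so how common such ratios are among all pairs is not known.

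**Figure D5:**
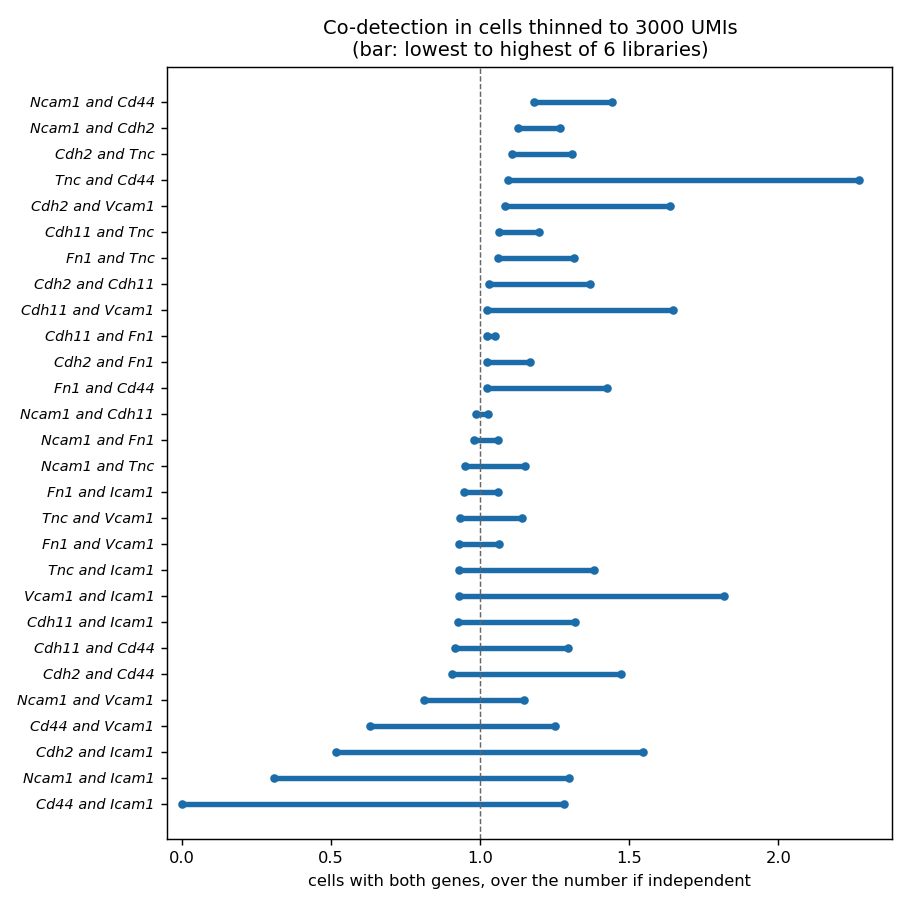
Co-detection of each pair of adhesion genes in cells thinned to 3000 UMIs, as the number of cells with both genes over the number if independent (horizontal axis), with a bar from the lowest to the highest of the 6 libraries and a dashed line at 1. Bars of 12 pairs lie wholly above 1, *Tnc* and *Cd44* reach 2.27, and the longest bar is that of *Cd44* and *Icam1*, from 0 to 1.28.

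Finally, the genes most like each adhesion gene were sought over 95 cluster-by-library sums, as Pearson's r of log2(CPM + 1) centred within each library, among 8344 genes. The sums share libraries, depth and cell types, so r is a description. *Fn1* was most like *Thbs1* (r = 0.92), *Tnc* (0.88) and *Unc5b* (0.86), and *Tnc* most like *Col12a1* (0.90), *Unc5b* (0.89) and *Thbs1* (0.88). *Cdh11* ran with *Col1a2* (0.93), *Egfr* (0.90) and *Rbms3* (0.90), *Cdh2* with *Ltbp1* (0.86), *Sema3a* (0.85) and *Vcl* (0.82), and *Ncam1* with *Ddr1* (0.80), *Obsl1* (0.77) and *Tacc2* (0.77). *Cd44* was closest to *Msn* (0.91), whose product links CD44 to actin, and then to *Mvp* (0.84) and *Wdr1* (0.83). *Vcam1* was closest to *Sept6*, *Olfml3* and *Jcad* (0.82, 0.81 and 0.80), and *Icam1* to *Colec12*, *Zfp36* and *Fcgrt* (0.77, 0.76 and 0.75).

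Among the 8 genes themselves, r over the same sums was highest for *Fn1* with *Tnc* (0.88), *Cdh2* with *Cdh11* (0.77), *Cdh11* with *Tnc* (0.73) and *Cdh11* with *Vcam1* (0.70). *Ncam1* and *Cdh2*, the classical pair, had an r of 0.42. *Icam1* lay between -0.38 (with *Ncam1*) and 0.20 (with *Cd44*) against the other 7.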

How the data were processed

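Single-cell libraries (10x 3′ chemistry) of independent replicate cultures A and B at each day were deposited as UMI counts per gene and barcode, which the authors made with Cell Ranger 6.1.2 (STAR, GRCm38), without normalisation. Barcodes were filtered per library by the study's limits on UMIs, genes (200 to 7500), mitochondrial and ribosomal share; the cells left equalled the study's stated number or differed by 1. No doublet caller was run. UMIs were summed per library, and days were compared with the quasi-likelihood test of edgeR 4.0.16 (TMM, all 6 libraries in a single fit, 18987 genes after its filter on low counts, Benjamini-Hochberg adjustment), with 3 residual degrees of freedom. The spread of a gene was estimated over all days together and drawn toward that of other genes, with 5.48 prior degrees of freedom. The SEs are therefore not the spread between the 2 libraries of a day, and each day still rests on 2 libraries.

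Cells were clustered per day after the study's methods with Seurat 5.3.0 (SCTransform with the difference of S and G2M scores regressed, anchor integration, 35 dimensions, and the resolutions of the study's integrated data, 0.5 and, at Day 10, 0.7), except that integration used 3000 features without the 8 genes in place of all genes. A cluster was called X-like where at least 3 listed markers were enriched and its 10 leading genes held more markers of that list than of any other. Markers of hypertrophic chondrocytes did not count against the chondrocyte name. Most unnamed clusters had enough enriched markers and failed on the leading genes. The details of that rule were set after the leading genes had been seen. Pathway genes named are at most 2 called genes of largest change per list and comparison, with a mean of at least 10 CPM at a day compared. *St8sia4*, below that level, is named besides as the other polysialic acid enzyme. The members and all lists were chosen with earlier results of these data known.

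Alternatives were RLE size factors, DESeq2 1.42.0, no filter on low genes, other cell filters, cells thinned to 1000 UMIs, sums without certain genes or clusters, the replicate letter as a block, and leaving out each library.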

Additional observations from a re-analysis of the deposited data

How the results depend on the processing

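All 24 calls on the adhesion genes (8 genes in 3 comparisons) kept their direction and their side of the threshold with RLE size factors, with DESeq2, with all deposited barcodes, with cells of at least 3000 UMIs, without mitochondrial and other abundant RNAs, and without either Day 2 library. With each cell thinned to 1000 UMIs, 16 of 24 did: *Cdh11* reversed to 0.23 between Day 2 and Day 7, *Tnc* reversed to -0.018 between Day 7 and Day 10, 5 calls were lost (*Cdh2*, *Cdh11*, *Icam1* and *Ncam1* from Day 7 to Day 10, and *Ncam1* from Day 2 to Day 10) and *Vcam1* was called lower at Day 10 than at Day 2. The genes called from Day 7 to Day 10 then numbered 3 higher and 0 lower, and those lower at Day 10 than at Day 2 numbered 2. Over all genes, calls fell with thinning from 13342 to 7986, from 9913 to 3548 and from 14670 to 8762 in the 3 comparisons (Day 7 over Day 2, Day 10 over Day 7, Day 10 over Day 2), with 13859 genes tested. The number lower at Day 10 than at Day 7, 2 as reported, was 1 with no filter on low genes and 1 without immune-like clusters, each time through *Ncam1* (adjusted p = 0.0712 and 0.0671). The number lower at Day 10 than at Day 2, 1 as reported, was 2 without myocyte-like clusters. Leaving out 1 library at a time gave 0 to 2 genes lower at Day 10 than at Day 7 and 1 to 2 lower than at Day 2; all such losses were of *Ncam1* and *Icam1*, and the gain was *Vcam1* without Day 10 replicate A. The edgeR fits that leave a day with 1 library assume that it varies like the others. The cause of these shifts was not tested.

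With the replicate letter as a block, 23 of 24 calls were the same, and *Ncam1* from Day 7 to Day 10 was no longer called (-0.14, edgeR adjusted p = 0.0503), which left 1 gene lower. The letters are not stated to pair the cultures, and the deviations of same-lettered libraries did not go together (r = -0.016, -0.057 and -0.0077 over 18987 genes for Day 2 with 7, Day 2 with 10 and Day 7 with 10).

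Thinned to 3000 in place of 1000 UMIs, the ratio of Day 10 to Day 2 in the share of cells with a UMI was 0.408 for *Cdh2* (0.357 at 1000), 1.06 for *Cdh11* (1.17), 1.39 for *Fn1* (1.78) and 3.10 for *Icam1* (3.90). Thinning to 3000 UMIs left out more cells than thinning to 1000 UMIs, so the sets of cells also differ. At double the clustering resolution the highest cluster mean of *Vcam1* was 55.8 CPM in place of 50.3 CPM.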
